A study of Homo sapiens with 4 samples.

Results

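The 10 genes described here encode adhesion molecules of leukocytes and were followed in 2 human lymphoma lines, with and without the BET inhibitor JQ1. They were chosen by name from the gene table as integrin subunits (ITGA4, ITGAL, ITGB1, ITGB2 and ITGB7), their intercellular adhesion ligands (ICAM1, ICAM2 and ICAM3), the hyaluronan receptor CD44 and the selectin ligand PSGL-1 (gene SELPLG). All 10 were found among the 41507 genes of the table. SU-DHL-5 and Toledo are established lines of diffuse large B-cell lymphoma, labelled as B lymphocytes. Each line was given either DMSO, the solvent, or 1 µM JQ1, which competes with acetylated histones for the bromodomains of BET proteins. The labels give 6 h for both arms, while the text of the study gives another time, and the titles of the treated samples spell the compound JO1. Each of the 4 conditions was 1 sample of total RNA with 2 libraries, from 14617580 to 17679831 mapped reads per library as recovered from the values. The 2 value columns of a sample are not explained by its label and were taken as repeat libraries, on which the calls below rest.

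The values are RPKM, read numbers scaled by gene length and by the mapped reads of the library, so levels can be set side by side between genes. With 1 sample per condition there was no replicate of a condition and no test. Both library values are given instead, and a gene is called lower or higher where both libraries of a sample lay below or above both libraries of the other. Intervals are exact (Clopper-Pearson) 95% binomial intervals of the reads pooled over the libraries of a sample, and like the floor of 3 reads they cover counting error only. Ratios are of mean RPKM; log2 ratios were taken on mean RPKM + 0.1, which understates the change of low genes. Genes were counted where the mean reached 1 RPKM in either sample compared. In bulk RNA, fewer cells with a transcript and less of it per cell cannot be told apart.

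Integrins are heterodimers of an alpha and a beta chain that bind matrix or other cells once talin and kindlin engage the beta tail. On lymphocytes, the ITGAL and ITGB2 products form LFA-1, which binds ICAMs. The ITGA4 product pairs with that of ITGB1 as VLA-4, a receptor for VCAM-1 and fibronectin, or with that of ITGB7 as the gut-homing receptor for MAdCAM-1. CD44 binds hyaluronan and is tied to the cytoskeleton by ezrin, radixin and moesin. PSGL-1 binds selectins once it carries the right sugars and sulfate. These receptors are known for guiding B cells into lymphoid tissue and holding them there.

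The B-cell label was checked first. Of 8 B-cell markers, 7 were at 1 RPKM or more in each of the 4 samples, with a summed level under DMSO of 957 RPKM in SU-DHL-5 and 935 RPKM in Toledo. CD79A, a chain of the B-cell receptor complex, was the highest in SU-DHL-5 at a mean of 603 RPKM, and its partner CD79B in Toledo at 444 RPKM. CR2, the complement receptor of mature B cells, was listed at 0 in SU-DHL-5 and reached at most 0.149 RPKM in a Toledo library. With JQ1 the summed level was 649 RPKM in SU-DHL-5 and 621 RPKM in Toledo. MS4A1, which encodes CD20, was at 51.01 and 43.5 RPKM under DMSO and 11.7 and 12.01 RPKM under JQ1 in SU-DHL-5, and at 96.7 and 109 RPKM and 38.6 and 35.4 RPKM in Toledo. CD22, which dampens signals of the B-cell receptor, had a log2 ratio of -1.47 (SU-DHL-5) or -1.11 (Toledo). BLK, a kinase of B cells, was at 18.6 and 18.7 RPKM under DMSO and 3.02 and 3.46 RPKM under JQ1 in Toledo, with a log2 ratio of -0.03 in SU-DHL-5. Not all markers were lower: the libraries of CD79B overlapped in SU-DHL-5 (log2 ratio 0.01) and those of PAX5, a B-cell transcription factor, in Toledo (0.27). The part of these shifts in the adhesion results was not tested.

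The response to the drug was read from genes outside the members. HEXIM1, known to increase under BET inhibition, was at 4.35 and 3.89 RPKM under DMSO against 22.4 and 22.9 RPKM under JQ1 for SU-DHL-5, a ratio of 5.50 (5.06 to 6.00). For Toledo it was at 4.04 and 3.94 RPKM against 23.9 and 24.5 RPKM, a ratio of 6.07 (5.58 to 6.60). MYC was at 44.1 and 40.9 RPKM under DMSO against 35.2 and 34.4 RPKM under JQ1 for SU-DHL-5, a ratio of 0.819 (0.779 to 0.864). Its Toledo libraries overlapped, at 40.4 and 44.4 RPKM against 44.6 and 42.1 RPKM, a ratio of 1.02 (0.976 to 1.07).

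The 2 libraries of Toledo DMSO differed from each other by gene length. Across its 9467 genes at 1 RPKM or more, the log2 ratio of its library 2 over library 1 had a Spearman rho of 0.62 with gene length, against -0.09 for SU-DHL-5 DMSO, -0.06 for SU-DHL-5 JQ1 and -0.28 for Toledo JQ1. The points are genes of the same pair of libraries and not replicates. ITGA4, with a long transcript, was higher in library 2 and ICAM3, with a short one, in library 1. Member results that moved outside their interval or changed a call in Toledo when log2 ratios were centred on gene length (ICAM1, ICAM2 and ICAM3) are given below with both values.

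The lines differed before treatment in which adhesion genes they carried. Toledo held more of the ICAM ligands, of CD44, of ITGA4 and of SELPLG, and SU-DHL-5 held more of the beta chains and of ITGAL. ICAM1, the inducible ligand of LFA-1, was at 18.8 and 19.1 RPKM in the Toledo DMSO libraries. It had 0 reads in all 4 SU-DHL-5 libraries, where 3 reads over the DMSO sample would have been 0.0283 RPKM. Against that floor ICAM1 was at least 670.3-fold higher in Toledo, while the lower limit of the 95% binomial interval, which allows for more than 3 reads, was 545-fold. CD44 was at 19.9 and 22.4 RPKM in Toledo and rested on 2 reads in SU-DHL-5 DMSO, a ratio of 2432 (672 to 20064). ITGA4 was at 8.66 and 11.4 RPKM in Toledo and at 0.492 and 0.387 RPKM in SU-DHL-5, a ratio of 22.9 (18.4 to 28.6).

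ICAM2, a ligand carried by resting lymphocytes, was at 37.3 and 34.2 RPKM in Toledo and at 4.06 and 4.52 RPKM in SU-DHL-5, a ratio of 8.33 (7.23 to 9.64). ICAM3, a ligand of leukocytes, was at 16.05 and 13.8 RPKM in Toledo and at 3.04 and 2.88 RPKM in SU-DHL-5, a ratio of 5.04 (4.29 to 5.99). SELPLG was low in both lines, at 1.03 and 1.23 RPKM in Toledo and at 0.111 and 0.103 RPKM in SU-DHL-5, a ratio of 10.5 (5.50 to 22.5) from 109 and 10 reads. With a pseudocount of 1 RPKM its log2 ratio was 0.94 in place of 2.57, which is inside 2-fold. In these 6 genes both Toledo libraries lay above both SU-DHL-5 libraries.

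The other 4 genes were lower in Toledo. ITGB2, the common chain of the leukocyte integrins, was at 16.5 and 14.97 RPKM in SU-DHL-5 and at 2.63 and 2.30 RPKM in Toledo, a Toledo to SU-DHL-5 ratio of 0.156 (0.138 to 0.179). Its partner ITGAL was at 3.29 and 3.14 RPKM in SU-DHL-5 and at 0.869 and 1.11 RPKM in Toledo, a ratio of 0.308 (0.257 to 0.364). Both chains of LFA-1 were thus lower in the line whose ICAM levels were higher. ITGB1 was at 14.5 and 14.9 RPKM in SU-DHL-5 and at 6.55 and 8.42 RPKM in Toledo, a ratio of 0.510 (0.470 to 0.547), and with library 1 alone its log2 ratio was -1.13 in place of -0.96, which is past 2-fold. ITGB7 was at 1.93 and 1.43 RPKM in SU-DHL-5 and at 1.09 and 1.10 RPKM in Toledo, a ratio of 0.651 (0.509 to 0.839), and its log2 ratio of -0.58 was -0.35 with library 2 alone.

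All 10 genes passed the filter in this comparison, 4 of them only through Toledo (ITGA4, ICAM1, CD44 and SELPLG) and 1 only through SU-DHL-5 (ITGAL), so that these 5 had to differ. Past 2-fold, 2 of the 10 were lower and 6 higher in Toledo, beside 14.2% and 16.7% of the 10078 genes tested. Libraries did not overlap in 4 lower and 6 higher genes, beside 41.9% and 43.2% of the genes tested. The median log2 ratio of the 10 was 2.43, also with ICAM1 at its bound, and that of the genes tested was 0.00467.

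**Figure D1:**
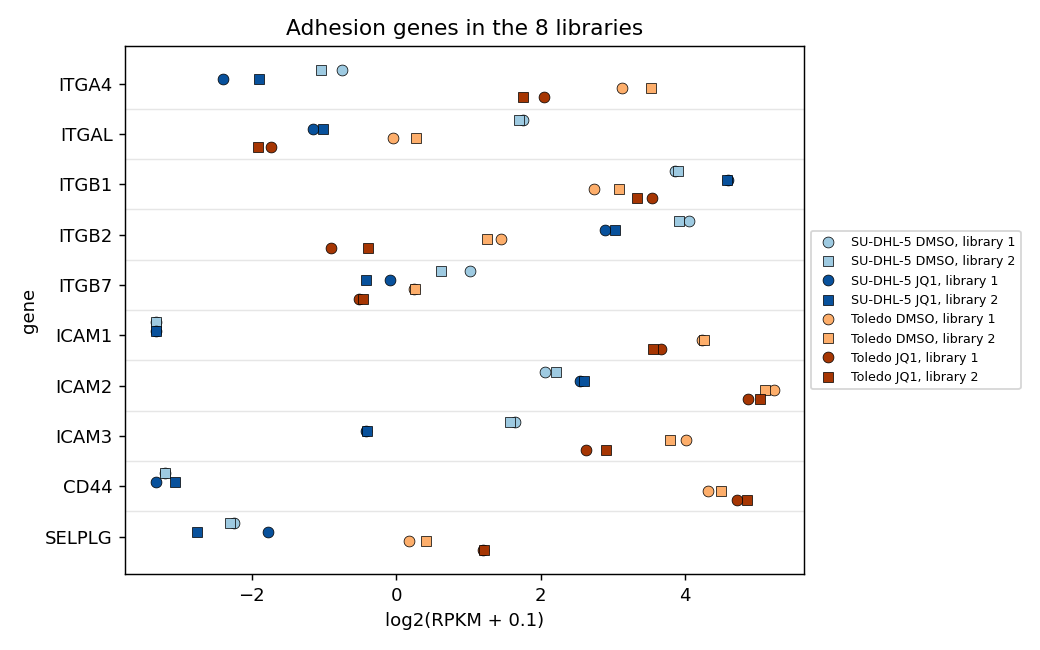
Levels of the 10 adhesion genes as log2(RPKM + 0.1), with circles for library 1 and squares for library 2 of each sample. ICAM1 and CD44 lie at the left edge in SU-DHL-5 and far to the right of it in Toledo, and ITGB2 lies further right in SU-DHL-5 than in Toledo.

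**Figure D2:**
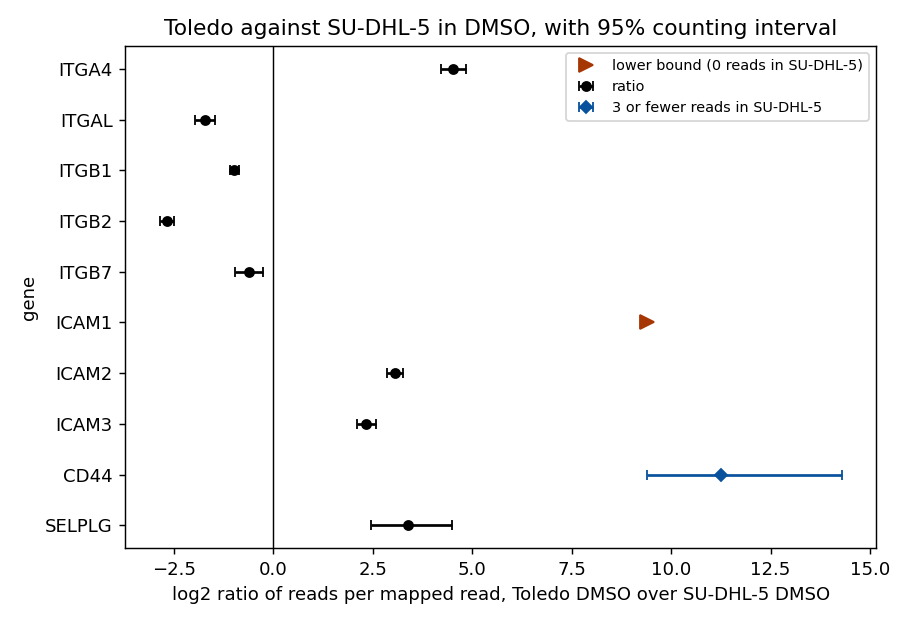
Toledo DMSO over SU-DHL-5 DMSO for each gene, as the log2 ratio of reads per mapped read with its 95% binomial interval. The triangle for ICAM1 is a lower bound, since SU-DHL-5 had 0 reads, and the diamond for CD44 rests on 2 reads in SU-DHL-5.

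Ordered by level under DMSO, SU-DHL-5 ran from ITGB2 (mean 15.7 RPKM) and ITGB1 (14.7 RPKM) down through ICAM2, ITGAL, ICAM3, ITGB7, ITGA4 and SELPLG, and no neighbours in that order had overlapping libraries. CD44 and ICAM1 came last, both under the floor of 3 reads. Toledo ran from ICAM2 (35.7 RPKM), CD44 (21.2 RPKM) and ICAM1 (18.96 RPKM) through ICAM3, ITGA4, ITGB1 and ITGB2 to SELPLG, ITGB7 and ITGAL, whose libraries overlapped from neighbour to neighbour. Under JQ1, ITGB1 was the highest of the 10 in SU-DHL-5, at a mean of 23.9 RPKM, and ICAM2 in Toledo, at 30.99 RPKM. In SU-DHL-5 with JQ1 the libraries of ITGB7 and ICAM3, of ITGA4 and SELPLG, and of CD44 and ICAM1 overlapped, and in Toledo with JQ1 those of ITGB7 and ITGB2.

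Treatment with JQ1 was compared with DMSO within each line. In both lines 5 genes were lower with no overlap of libraries: ITGA4, ITGAL, ITGB2, ITGB7 and ICAM3. ITGB1 was higher in both. Of the 5 members that passed the filter in both lines, 3 were lower in both (ITGB2, ITGB7 and ICAM3) and 1 higher, beside 29.3% and 24.4% of the 8718 genes that passed in both. ITGB7 passed only through DMSO in both lines, ICAM3 in SU-DHL-5 and ITGB2 in Toledo, so that these had to be lower there. ITGAL, the alpha chain of LFA-1, was at 3.29 and 3.14 RPKM under DMSO and at 0.349 and 0.394 RPKM under JQ1 in SU-DHL-5, a JQ1 to DMSO ratio of 0.116 (0.0867 to 0.151). In Toledo, where its mean of 0.990 RPKM was just under the filter, ITGAL was at 0.869 and 1.11 RPKM under DMSO and 0.201 and 0.167 RPKM under JQ1, from 174 and 31 reads, a ratio of 0.185 (0.123 to 0.274). Its log2 ratio of -1.94 was -0.75 with a pseudocount of 1 RPKM, inside 2-fold.

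ITGB2, its partner, was also lower in both lines. The SU-DHL-5 values were 16.5 and 14.97 RPKM under DMSO and 7.32 and 8.03 RPKM under JQ1, a ratio of 0.487 (0.447 to 0.531). The Toledo values were 2.63 and 2.30 RPKM and 0.432 and 0.663 RPKM, a ratio of 0.222 (0.164 to 0.295). The Toledo log2 ratio of -1.98 was -2.36 with library 1 alone and -1.65 with library 2 alone. With a pseudocount of 1 RPKM it was -1.16, and all of these were past 2-fold. The SU-DHL-5 difference sat at the 2-fold line: with library 2 alone its log2 ratio was -0.89 in place of -1.03.

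ITGA4, the alpha chain of VLA-4, was at 8.66 and 11.4 RPKM under DMSO and at 4.04 and 3.28 RPKM under JQ1 in Toledo, a ratio of 0.364 (0.336 to 0.399). The Toledo log2 ratio of -1.43 was -1.08 with library 1 alone and -1.77 with library 2 alone, both outside the counting interval. In SU-DHL-5 ITGA4 did not pass the filter, at 0.492 and 0.387 RPKM under DMSO and 0.0897 and 0.169 RPKM under JQ1, from 87 and 24 reads, a ratio of 0.294 (0.176 to 0.460). The libraries of the SU-DHL-5 samples did not overlap, though the gene was low in that line throughout. Its log2 ratio of -1.24 was -1.64 with library 1 alone and -0.86 with library 2 alone, which is inside 2-fold. With a pseudocount of 1 RPKM it was -0.35, also inside 2-fold.

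ITGB7, the other partner of ITGA4, was at 1.93 and 1.43 RPKM under DMSO and at 0.839 and 0.647 RPKM under JQ1 in SU-DHL-5, a ratio of 0.441 (0.332 to 0.597). For Toledo it was at 1.09 and 1.10 RPKM and 0.602 and 0.628 RPKM, a ratio of 0.561 (0.402 to 0.777). ITGB1, which pairs with many alpha chains, went the other way. Its SU-DHL-5 values were 14.5 and 14.9 RPKM under DMSO and 24.1 and 23.7 RPKM under JQ1, a ratio of 1.63 (1.54 to 1.73). Its Toledo values were 6.55 and 8.42 RPKM and 11.6 and 9.96 RPKM, a ratio of 1.44 (1.33 to 1.57), with a log2 ratio of 0.52 that was 0.81 with library 1 alone and 0.24 with library 2 alone.

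Among the ligands, ICAM3 was lower in both lines. For SU-DHL-5 it was at 3.04 and 2.88 RPKM under DMSO and 0.647 and 0.653 RPKM under JQ1, a ratio of 0.220 (0.149 to 0.316). For Toledo it was at 16.05 and 13.8 RPKM and 6.08 and 7.42 RPKM, a ratio of 0.453 (0.399 to 0.508). The Toledo log2 ratio of -1.13 became -0.98 when centred on gene length and -0.88 with library 2 alone, both inside 2-fold. ICAM1 was at 18.8 and 19.1 RPKM under DMSO and at 12.6 and 11.6 RPKM under JQ1 in Toledo, a ratio of 0.640 (0.597 to 0.687), and had 0 reads in SU-DHL-5 with JQ1 as without. Centred on gene length its Toledo log2 ratio was -0.52 in place of -0.64, and its libraries still did not overlap.

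ICAM2 differed in direction between the lines. In SU-DHL-5 it was at 4.06 and 4.52 RPKM under DMSO and 5.73 and 5.97 RPKM under JQ1, a ratio of 1.36 (1.13 to 1.63). In Toledo it was at 37.3 and 34.2 RPKM and 29.2 and 32.8 RPKM, a ratio of 0.867 (0.808 to 0.926). When centred on gene length the Toledo libraries overlapped, with a log2 ratio of -0.08 in place of -0.21. It was -0.35 with library 1 alone and -0.06 with library 2 alone. The difference between the lines was not tested.

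CD44 and SELPLG were higher under JQ1 in Toledo. CD44 was at 19.9 and 22.4 RPKM under DMSO and 26.1 and 28.8 RPKM under JQ1, a ratio of 1.30 (1.26 to 1.35). SELPLG was at 1.03 and 1.23 RPKM and 2.19 and 2.21 RPKM, a ratio of 1.95 (1.55 to 2.50). Its log2 ratio of 0.91 was 1.02 with library 1 alone, past 2-fold, and 0.80 with library 2 alone. With a pseudocount of 1 RPKM it was 0.59, below the counting interval. For SU-DHL-5 a difference was not detectable at this depth, with 2 reads of CD44 in each sample, and 10 reads of SELPLG under DMSO and 11 under JQ1.

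In SU-DHL-5, 6 of the 10 genes passed the filter, 3 of them only through DMSO (ITGAL, ITGB7 and ICAM3), so that these had to differ. Past 2-fold, 4 of the 6 were lower and 0 higher, beside 6.28% and 1.84% of the 9316 genes tested. With a pseudocount of 1 RPKM this was 2 of 6, as ITGB2 had a log2 ratio of -0.95 and ITGB7 of -0.62. Libraries did not overlap in 4 lower and 2 higher genes, beside 38.5% and 42.1% of genes. In Toledo 9 passed, 2 of them only through DMSO (ITGB2 and ITGB7). Past 2-fold, 3 of the 9 were lower and 0 higher, beside 8.01% and 1.94% of the 9646 genes tested. Libraries did not overlap in 6 lower and 3 higher genes, beside 43.6% and 29.5% of genes. After centring on gene length, 2 of the 9 were past 2-fold and 8 were without overlap. Over the genes tested, 685 were then lower and 234 higher past 2-fold, and 3807 lower and 3859 higher without overlap. Of all genes without overlap in Toledo, 40.3% were higher, 46.7% after scaling by the median ratio and 50.3% after centring. Centring removes the median shift within each range of gene length, so a near-even share follows from the method. Non-overlap was common over all genes and says little about these members. The median log2 ratio of the members that passed was -1.05 in SU-DHL-5 against 0.0186 over the genes tested, and -0.64 in Toledo against -0.0716. At a filter of 5 RPKM, 3 members were left in SU-DHL-5 (ITGB1, ITGB2 and ICAM2) and their median was 0.44.

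**Figure D3:**
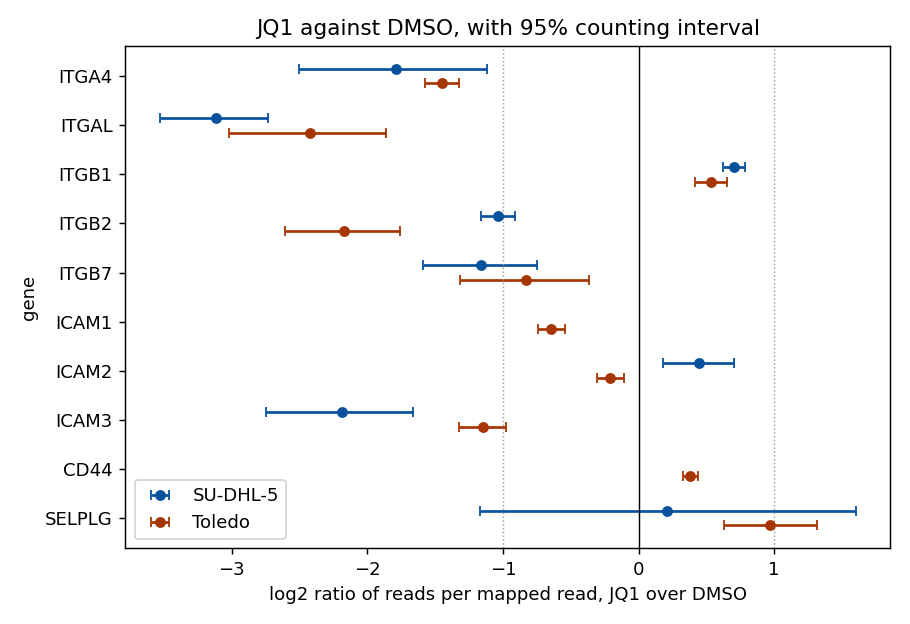
JQ1 over DMSO in each line, as the log2 ratio of reads per mapped read with its 95% binomial interval, with dotted lines at 2-fold. ITGA4, ITGAL, ITGB2, ITGB7 and ICAM3 lie left of 0 in both lines, ITGB1 right of 0 in both, and ICAM2 right of 0 in SU-DHL-5 and left in Toledo, where centring on length made its libraries overlap; genes with 3 or fewer reads in a sample are not drawn.

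Of the 10 genes, 6 matched the RefSeq promoter table of GRCh38.p14 (ITGA4, ITGB1, ITGB7, ICAM1, ICAM3 and CD44), which holds 300 bases from 250 before to 50 after a start. Where a gene had several entries, the start nearest to where the deposited gene begins on its strand was taken. The windows of ITGA4, ICAM1 and CD44 lie wholly inside the deposited gene and do not reach upstream of it. Those of 3 genes that were lower in both lines, and that of ITGB1, which was higher in both, are shown to set genes of opposite direction side by side. Capitals mark matches on either strand to any of 4 motifs, the E-box CACGTG, the GC box GGGCGG, the RUNX motif TGTGGT and the ETS core CCGGAA, and no matches overlapped. These motifs were chosen with the promoters in view. ITGA4 is at chr2:181457136-181457435 on the plus strand, ICAM3 at chr19:10339575-10339874, ITGB7 at chr12:53207202-53207501 and ITGB1 at chr10:32958181-32958480, all 3 on the minus strand.
ITGA4: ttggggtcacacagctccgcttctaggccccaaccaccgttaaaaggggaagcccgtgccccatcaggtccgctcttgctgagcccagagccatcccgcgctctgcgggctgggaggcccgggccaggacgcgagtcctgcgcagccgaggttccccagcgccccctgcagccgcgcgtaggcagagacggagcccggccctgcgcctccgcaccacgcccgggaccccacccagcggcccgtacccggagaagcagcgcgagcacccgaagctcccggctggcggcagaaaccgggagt
ICAM3: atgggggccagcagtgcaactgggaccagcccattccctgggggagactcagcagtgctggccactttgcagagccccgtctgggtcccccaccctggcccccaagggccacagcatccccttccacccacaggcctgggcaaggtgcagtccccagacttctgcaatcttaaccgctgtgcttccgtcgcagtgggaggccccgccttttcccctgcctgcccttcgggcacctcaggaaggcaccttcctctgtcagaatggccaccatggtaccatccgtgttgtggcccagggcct
ITGB7: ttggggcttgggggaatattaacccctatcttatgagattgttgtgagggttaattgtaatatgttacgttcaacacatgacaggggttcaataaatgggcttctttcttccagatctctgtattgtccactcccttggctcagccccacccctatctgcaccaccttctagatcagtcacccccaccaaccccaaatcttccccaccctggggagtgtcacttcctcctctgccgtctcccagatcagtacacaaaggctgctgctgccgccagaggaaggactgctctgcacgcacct
ITGB1: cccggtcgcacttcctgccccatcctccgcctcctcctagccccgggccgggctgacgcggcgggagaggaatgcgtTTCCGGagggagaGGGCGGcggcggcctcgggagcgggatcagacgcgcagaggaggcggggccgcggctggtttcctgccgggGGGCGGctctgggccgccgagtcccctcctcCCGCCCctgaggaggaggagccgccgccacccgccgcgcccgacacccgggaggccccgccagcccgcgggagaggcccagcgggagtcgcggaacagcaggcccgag
The ITGB1 window held 3 GC boxes and 1 ETS core, and the ITGA4, ICAM3 and ITGB7 windows held 0 matches to the 4 motifs. Of the windows not shown, that of ICAM1, which was lower under JQ1 in Toledo, held 2 GC boxes and 4 ETS cores, and that of CD44, which was higher there, held 2 GC boxes. Of the 35116 promoters in the table, 45% held the GC box, 17.2% the ETS core, 13.1% the RUNX motif and 7.26% the E-box. A match describes letters in the window and is not a measured site.

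Ratios between chains that pair in a heterodimer were compared within each library. ITGA4 to ITGB1, the pair of VLA-4, had an RPKM ratio of 1.32 and 1.36 in Toledo DMSO and 0.350 and 0.329 in Toledo JQ1. In SU-DHL-5 the ratio was 0.0340 and 0.0260 under DMSO and 0.00372 and 0.00711 under JQ1. The RNA of the VLA-4 alpha chain thus went from above to below that of its beta chain in Toledo and was far below it in SU-DHL-5 in both conditions. ITGAL to ITGB2, the pair of LFA-1, had a ratio of 0.199 and 0.210 in SU-DHL-5 DMSO and 0.0477 and 0.0491 in SU-DHL-5 JQ1, so that ITGAL was lower relative to its partner. In Toledo that ratio was 0.331 and 0.484 under DMSO and 0.464 and 0.251 under JQ1, which overlapped. ITGA4 to ITGB7 was at 7.95 and 10.4 in Toledo DMSO and 6.72 and 5.23 in Toledo JQ1, and for SU-DHL-5 it was at 0.254 and 0.271 and then 0.107 and 0.261, which overlapped. The beta chains that compete for ITGA4 also shifted. ITGB7 to ITGB1 was at 0.134 and 0.0963 under DMSO and 0.0348 and 0.0273 under JQ1 in SU-DHL-5, and at 0.166 and 0.131 and 0.0521 and 0.0630 in Toledo.

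**Figure D4:**
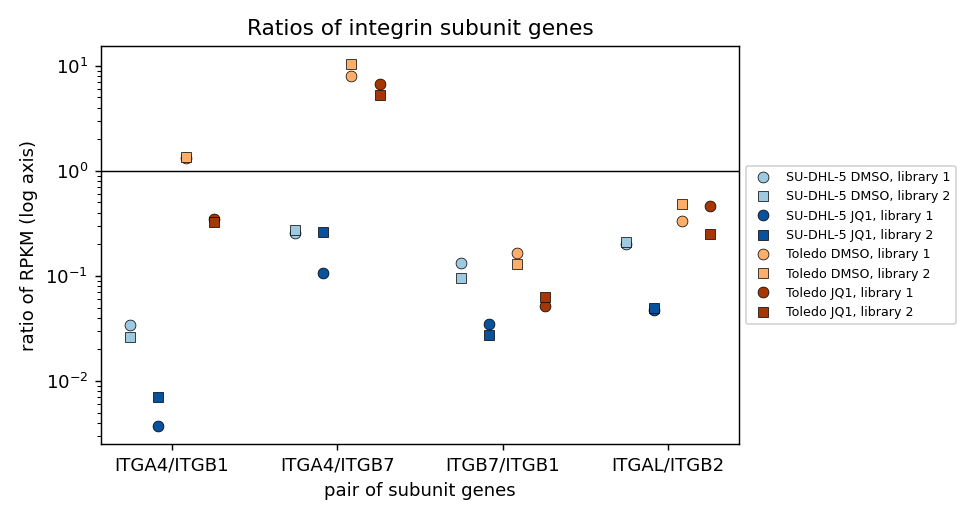
Ratio of RPKM between integrin subunit genes in each library, on a log axis, with a line at a ratio of 1. ITGA4 to ITGB1 lies above the line only in Toledo DMSO, and ITGB7 to ITGB1 is lower under JQ1 in both lines.

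The transcript table was read for the same genes. ITGA4, ICAM1 and ICAM3 have 1 listed transcript each. ITGB1_1 held 97.4% and ICAM2_1 89.1% of the summed transcript RPKM of their genes over the 8 libraries, so that these values rest mostly on 1 form. The Toledo libraries of ICAM2_1 overlapped between DMSO (43.9 and 40.1 RPKM) and JQ1 (34.9 and 40.2 RPKM), unlike those of the gene. For CD44, with 19 listed, CD44_5 held 93.6% of the summed RPKM in Toledo DMSO and 81.4% in Toledo JQ1. CD44_19, picked out after its values were seen, is a form of 1447 bases that ends inside the gene. It was at 0 and 0.511 RPKM in Toledo DMSO and at 4.97 and 6.08 RPKM in Toledo JQ1, from 12 and 259 reads, a ratio of 21.6 (12.7 to 44.3). All 12 DMSO reads were in library 2, and with that library alone the ratio was 11.9, below that interval. CD44_5 was at 28.2 and 32.9 RPKM and 35.2 and 40.3 RPKM, so that the main form was also higher. How reads were assigned to transcripts is not given in the sources used here. For ITGB7 the assignment shifted between the libraries of 1 sample, with ITGB7_1 at 0.6005 and 0 RPKM in Toledo JQ1 and ITGB7_2 at 0.0220 and 0.666 RPKM.

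Genes that switch integrins on and tie them to actin were followed as a list of 30 activators and adaptors. In SU-DHL-5, 24 passed the filter, with 6 lower and 1 higher past 2-fold, 12 lower and 9 higher without overlap, and a median log2 ratio of -0.04. PXN passed there only through DMSO, so that it had to be lower. Over all genes tested there, 6.28% were lower and 1.84% higher past 2-fold, and 38.5% lower and 42.1% higher without overlap. In Toledo 23 passed, with 3 lower and 1 higher past 2-fold, 10 lower and 8 higher without overlap, and a median of -0.08, beside 8.01% and 1.94% past 2-fold and 43.6% and 29.5% without overlap over all genes. The same shares stand beside the JQ1 counts of the lists that follow. FERMT3, the kindlin of blood cells that binds beta tails, passed the filter only through DMSO in both lines, so that it had to be lower. It was at 4.10 and 3.95 RPKM under DMSO and 0.496 and 0.356 RPKM under JQ1 in SU-DHL-5, and at 5.43 and 5.73 RPKM and 0.892 and 0.507 RPKM in Toledo. RASSF5, which links active RAP1 to LFA-1, was at 7.04 and 6.61 RPKM and 2.56 and 2.47 RPKM in SU-DHL-5, and at 11.1 and 11.9 RPKM and 4.84 and 4.63 RPKM in Toledo.

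PARVG, a parvin of blood cells, was at 5.64 and 5.57 RPKM under DMSO and 1.57 and 1.21 RPKM under JQ1 in SU-DHL-5 and did not pass the filter in Toledo. PTK2B, a kinase downstream of integrins, had a log2 ratio of -1.83 (SU-DHL-5) or -0.67 (Toledo). ZYX, a focal adhesion protein, was at 4.25 and 3.68 RPKM under DMSO and 1.43 and 1.30 RPKM under JQ1 in Toledo and did not pass the filter in SU-DHL-5. TLN2, a talin, was the gene of the list that was higher past 2-fold, with a log2 ratio of 1.13 (SU-DHL-5) or 1.14 (Toledo), and passed the filter only through JQ1 in both, so that it had to be higher. By the highest mean in any of the 4 samples, the list was led by the GTPase RAP1B, the actin crosslinker FLNA and ILK, which binds parvins, an order that did not hold in each sample. RAP1B was at 104 and 108 RPKM and 135 and 139 RPKM in SU-DHL-5, FLNA at 38.1 and 29.5 RPKM and 42.9 and 42.8 RPKM, and ILK at 57.7 and 57.9 RPKM and 56.9 and 57.6 RPKM. In Toledo the log2 ratio was 0.32 for RAP1B, 0.28 for FLNA and 0.16 for ILK, all without overlap and higher. Between the lines under DMSO, 26 of the 30 passed, with 7 lower and 6 higher in Toledo past 2-fold, 11 lower and 11 higher without overlap, and a median of -0.02, beside 14.2% and 16.7% past 2-fold and 41.9% and 43.2% without overlap over all genes, as for the lists that follow. Of the 26, 3 passed only through Toledo (SKAP1, VCL and ZYX) and 4 only through SU-DHL-5 (FERMT1, PXN, PARVG and PTK2). These had to differ.

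Of the 21 other integrin subunits, 1 passed the filter in each comparison. It was ITGAE, the alpha chain that pairs with ITGB7 on mucosal lymphocytes, at 6.04 and 6.28 RPKM under DMSO and 5.49 and 5.12 RPKM under JQ1 in SU-DHL-5, and at 5.19 and 4.21 RPKM and 3.74 and 3.55 RPKM in Toledo. The next highest, ITGB5 and ITGB3, were below 1 RPKM in all 8 libraries.

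Of 16 other adhesion ligands and immunoglobulin-family molecules, 15 were found in the table. In SU-DHL-5, 5 passed, with 1 lower past 2-fold, 2 lower and 2 higher without overlap, and a median of -0.09. In Toledo 6 passed, with 2 lower past 2-fold, 4 lower and 1 higher without overlap, and a median of -0.66. CD48, a ligand of lymphocyte receptors, was past 2-fold in both lines, at 7.32 and 9.79 RPKM under DMSO and 1.92 and 1.96 RPKM under JQ1 in SU-DHL-5, and at 59.1 and 58.7 RPKM and 18.2 and 16.4 RPKM in Toledo. JAM2, a junctional molecule, was at 1.43 and 1.56 RPKM and 0.598 and 0.455 RPKM in Toledo, where it passed the filter only through DMSO, and did not pass it in SU-DHL-5. CADM1, a cell adhesion molecule, was at 23.9 and 23.9 RPKM in SU-DHL-5 DMSO and at 0.0386 and 0.0841 RPKM in Toledo DMSO, and CD47 was higher under JQ1 in both lines by less than 2-fold. Between the lines 7 passed, with 1 lower and 5 higher past 2-fold, 1 lower and 6 higher without overlap, and a median of 1.996. Of the 7, 2 passed only through Toledo (F11R and JAM2) and 1 only through SU-DHL-5 (CADM1), so that these had to differ. VCAM1, MADCAM1 and FN1, which encode the ligands of the ITGA4 integrins, were below 0.1 RPKM in every library.

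Of 14 linkers and hyaluronan genes, 6 passed in each comparison. Under JQ1 0 were past 2-fold in either line, and without overlap 1 was lower and 3 higher in SU-DHL-5 and 1 lower and 4 higher in Toledo. Their median was 0.31 in SU-DHL-5, 0.26 in Toledo and 0.67 between the lines, where 2 were higher past 2-fold and 5 higher without overlap. EZR, which encodes ezrin, was at 122 and 121 RPKM under DMSO and 169.9 and 166 RPKM under JQ1 in SU-DHL-5, MSN, which encodes moesin, at 90.5 and 75.99 RPKM and 56.5 and 59.8 RPKM, and HMMR, a hyaluronan-binding protein, at 25.2 and 30.3 RPKM and 25.8 and 25.9 RPKM, which overlapped. In Toledo EZR (log2 ratio 0.49) and HMMR (0.23) were higher and MSN (-0.19) lower, without overlap.

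Of 11 selectins and PSGL-1 modifying enzymes, 3 passed in SU-DHL-5, with 2 lower without overlap and a median of -0.48. In Toledo 6 passed, with 4 lower and 1 higher without overlap, and a median of -0.28. TPST2, which adds sulfate to PSGL-1, was lower under JQ1 in SU-DHL-5, at a log2 ratio of -0.48, and higher in Toledo, at 0.34. B4GALT1, a galactosyltransferase, overlapped in SU-DHL-5 at 6.13 and 5.06 RPKM and 5.51 and 5.51 RPKM, and was lower without overlap in Toledo at 8.63 and 10.98 RPKM and 8.27 and 7.87 RPKM. Between the lines 6 passed, with 2 lower and 4 higher without overlap, and a median of 1.63. Of the 6, 3 passed only through Toledo (GCNT1, ST3GAL4 and TPST1), so that these had to be higher.

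Tetraspanins, which gather integrins in membrane domains, numbered 11. All 11 passed in SU-DHL-5, with 1 lower and 1 higher past 2-fold, 6 lower and 3 higher without overlap (38.5% and 42.1% of all genes), and a median of -0.26. In Toledo 10 passed, with 1 lower past 2-fold, 6 lower and 2 higher without overlap (43.6% and 29.5% of all genes), and a median of -0.19. In SU-DHL-5 CD82 was at 10.96 and 10.6 RPKM under DMSO and 5.19 and 5.29 RPKM under JQ1, and TSPAN31 at 3.23 and 4.30 RPKM and 8.15 and 7.68 RPKM. In Toledo CD151, a partner of laminin-binding integrins, was at 13.2 and 13.5 RPKM and 5.72 and 7.001 RPKM. By the highest mean in any of the 4 samples, CD81, CD53 and CD63 led the list, though CD37 was above CD63 in SU-DHL-5. CD81 overlapped in SU-DHL-5 at 294 and 256 RPKM and 251 and 258 RPKM, CD53 was at 96.7 and 95.5 RPKM and 53.3 and 54.6 RPKM, and CD63 at 44.7 and 40.5 RPKM and 30.8 and 29.8 RPKM. In Toledo CD81 (log2 ratio -0.16), CD53 (-0.59) and CD63 (-0.35) were lower and TSPAN31 (0.61) higher, without overlap, and CD82 overlapped (-0.15), as CD151 did in SU-DHL-5 (-0.20). Between the lines 11 passed, with 4 lower and 1 higher past 2-fold, 7 lower and 3 higher without overlap, and a median of -0.81. CD9 passed only through SU-DHL-5, so that it had to be lower.

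**Figure D5:**
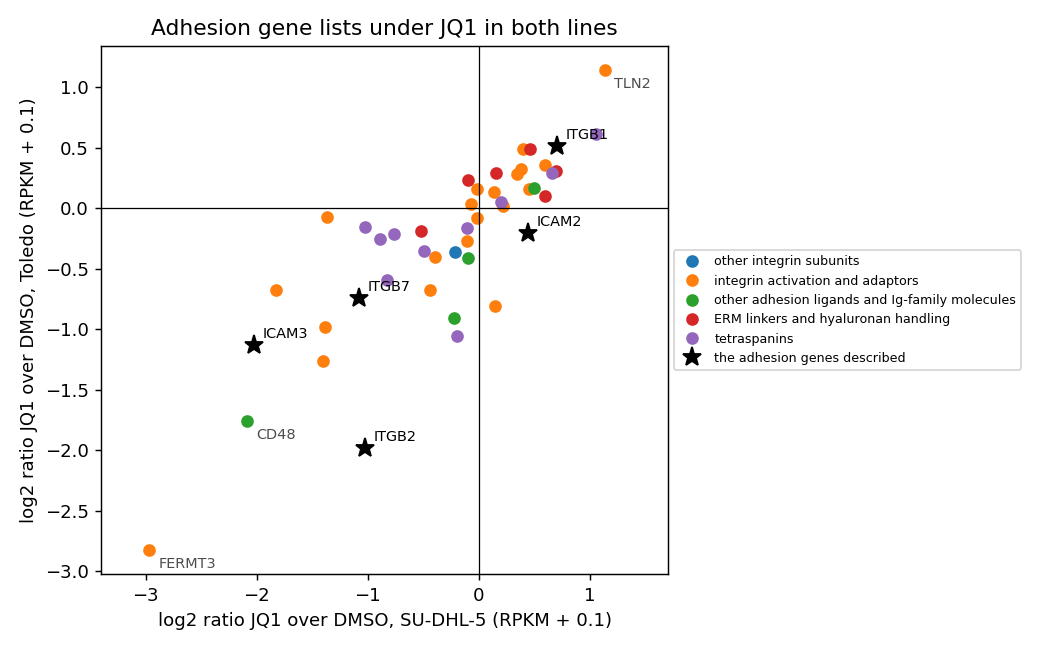
Log2 ratio of JQ1 over DMSO on RPKM + 0.1 in SU-DHL-5 and Toledo, for the 41 genes of 5 adhesion lists and the 5 of the 10 adhesion genes that passed the filter in both lines. FERMT3 and CD48 lie at the lower left and TLN2 at the upper right, and ICAM2 lies right of 0 for SU-DHL-5 and below 0 for Toledo, where centring on length made its libraries overlap.

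Markers of other cell types were read beside these results. Of 10 T-cell and NK-cell markers, 1 reached 1 RPKM in SU-DHL-5 DMSO and 0 in the other samples. Their summed level was 1.38 RPKM in SU-DHL-5 DMSO, 0.0827 RPKM in SU-DHL-5 JQ1, 0.191 RPKM in Toledo DMSO and 0.00867 RPKM in Toledo JQ1. CD3E, a chain of the T-cell receptor complex, made up most of it in SU-DHL-5 DMSO at 1.09 and 0.934 RPKM, ahead of NKG7 and CD3G, while CD8B, CD5 and CD7 were at 0 in all libraries. Of 8 myeloid markers, the summed level was 1.29 RPKM in SU-DHL-5 DMSO, 0.266 RPKM in SU-DHL-5 JQ1, 0.202 RPKM in Toledo DMSO and 0.152 RPKM in Toledo JQ1. The lysozyme gene LYZ led it in SU-DHL-5 DMSO at 1.09 and 1.20 RPKM, CSF1R and CD14 were next over the samples, and FCGR3A, S100A8, S100A9 and MPO were at 0 in all libraries. Of 9 stromal, epithelial and endothelial markers, COL1A1 alone passed 1 RPKM, at 2.29 and 2.72 RPKM in Toledo DMSO and at 0.228 and 0.397 RPKM in Toledo JQ1, PDGFRB and VWF followed far below, and EPCAM, KRT18, KRT19, CDH1 and CDH5 were at 0. The summed level of that list was 0.0819 RPKM in SU-DHL-5 DMSO, 0.0250 RPKM in SU-DHL-5 JQ1, 2.51 RPKM in Toledo DMSO and 0.324 RPKM in Toledo JQ1. CD3E and LYZ were lower with JQ1 in SU-DHL-5 and COL1A1 in Toledo, and their part in the adhesion results was not tested.

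Genes that overlap a member in position were low. CERKL, which overlaps ITGA4, was below 0.1 RPKM in every sample mean, and C17orf72, which overlaps ICAM2, was at 0.0834 RPKM in Toledo DMSO and 0.135 RPKM in Toledo JQ1. ITGB2-AS1, which overlaps ITGB2, was listed at 0 in all samples. In the deposited positions (GRCh38), ITGA4 is at chr2:181456892-181537747, ITGAL at chr16:30472662-30523185, ITGB1 at chr10:32900318-32958365, ITGB2 at chr21:44885949-44928838 and ITGB7 at chr12:53191318-53207307. ICAM1 is at chr19:10270841-10286615 and ICAM3 on the same chromosome at chr19:10333776-10339669, ICAM2 at chr17:64002595-64020634, CD44 at chr11:35138870-35232402 and SELPLG at chr12:108621895-108633959.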

How the data were processed

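RPKM per gene and per transcript, as deposited, were read for 8 libraries, 2 for each of 4 samples. Libraries came from a stranded mRNA kit, and whether counting used strand is not given in the sources used here. The submitters' processing notes name CASAVA 2.0 and GRCh38. Mapped reads per library were recovered from genes of 1 exon, where 96.4% to 98.1% of values came out whole within 0.02 reads. Gene lengths were then recovered for 14942 of the 14944 genes with a value; the method was tested on simulated data. The libraries of a sample counted as 1 replicate, so no test was run in the 3 comparisons. Log2 ratios of RPKM used a pseudocount of 0.1 RPKM and other ratios none, and counts used a minimum of 1 RPKM in either sample. The members and gene lists were chosen with earlier results of these data known. From each list the text names genes past 2-fold without library overlap, at most 4 per line by size, and up to 3 of the highest mean RPKM in any sample, with HEXIM1 and MYC as known responders; other genes were named after their values were seen, and some that the rule names, with list counts past 2-fold that need them, are not reported here. The lists were other integrin subunits, activation and adaptors, other ligands, linkers and hyaluronan, selectins and enzymes, tetraspanins, and markers of B cells, of T and NK cells, of myeloid cells and of stromal, epithelial and endothelial cells. Alternatives were other pseudocounts and minimum levels, scaling by the median ratio, single libraries, summed transcripts and centring on gene length. Promoter sequences are from RefSeq (GRCh38.p14). Software: matplotlib 3.10.9 for drawing, scipy 1.17.1 for intervals, pandas 2.3.3 and numpy 2.4.6 under Python 3.11.15.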

Additional observations from a re-analysis of the deposited data

Results flagged for a closer look

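ICAM2 went in opposite directions under JQ1 in the lines. Its log2 ratio was 0.44 in SU-DHL-5, with both JQ1 libraries above both DMSO libraries, and -0.21 in Toledo, with both below, a difference of -0.64 (Toledo minus SU-DHL-5). The difference between the lines was not tested. In Toledo the libraries overlapped once log2 ratios were centred on gene length, where the ratio was -0.08, and in SU-DHL-5 they did not. The Toledo ratio was -0.35 with library 1 alone and -0.06 with library 2 alone. For the main ICAM2 transcript, ICAM2_1, the Toledo libraries overlapped without centring, and those of SU-DHL-5 did not.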

How the results depend on the processing

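No paired analysis was possible within a line because no condition had more than 1 sample; an analysis with the lines as 2 pairs was not run. Of 203 alternative log2 ratios of single members, 155 lay within the counting interval of the reported gene, 48 lay outside it and 0 called values changed sign. Of the 48, 12 were of ICAM1 and CD44 between the lines, whose reported log2 ratios already lay outside it and lay inside only with a pseudocount of 0.01 RPKM. Of the 203, 3 had another sign than as reported, for CD44 or SELPLG in SU-DHL-5, where reads were few.

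Of the members' summaries in SU-DHL-5 (JQ1 against DMSO), a pseudocount of 1 RPKM gave a median log2 ratio of -0.79 in place of -1.05 and 2 members past 2-fold in place of 4. A filter of 5 RPKM left 3 members, with a median of 0.44, 1 past 2-fold and 3 without overlap, since fewer genes were counted. In Toledo the median of -0.64 was -0.38 with a pseudocount of 1 RPKM, -0.42 at 5 RPKM, -0.57 with library 1 alone, -0.72 with library 2 alone, -0.72 with summed transcripts and -0.52 centred on length. Between the lines the median of 2.43 was 1.47 and 2.69 with pseudocounts of 1 and 0.01 RPKM, 3.03 at 5 RPKM, 2.39 with library 1 alone and 2.48 with summed transcripts. The cause was not tested where the setting itself does not give it. Overlap of libraries cannot be counted with a single library. Centring on length moved the share of higher genes among all non-overlapping genes in Toledo from 40.3% to 50.3%. A near-even share follows from the centring itself, and scaling by the median ratio gave 46.7%. Depth limits SU-DHL-5 most for ICAM1, CD44 and SELPLG.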
